A study of Mus musculus with 58 samples.

Results

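The rod phototransduction cascade was followed through 9 genes of 52459 in the count table. They were chosen by name, as the subunits of transducin (Gnat1, Gnb1 and Gngt1), of the rod phosphodiesterase (Pde6a, Pde6b and Pde6g) and of the rod cyclic GMP-gated channel (Cnga1 and Cngb1), together with the rod arrestin Sag. RNA was sequenced from single retinas of male mice aged 4 months, kept from birth in 12 h light and 12 h dark. Diabetic mice were Ins2Akita heterozygotes with hyperglycemia, and controls were littermate males without the phenotype, labelled C57/BL/6. There were 30 control and 28 diabetic libraries, with 4 to 6 for each genotype at ZT1, ZT5, ZT9, ZT13, ZT17 and ZT21, where zeitgeber time (ZT) 0 is lights on. The Akita allele is a point mutation of an insulin gene that acts in the pancreas, so gene counts cannot check the genotype labels. No source used here ties each retina to its own animal beyond the words biological replicate, so p-values measure the spread between these libraries.

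In a rod, light leads to the loading of the transducin alpha subunit with GTP. Transducin then releases the inhibitory gamma subunits from the phosphodiesterase, cyclic GMP falls and the channel in the outer segment membrane closes. Arrestin helps to end the response. Arrestin and transducin also move between the inner and outer segments with light, in opposite directions, a movement of protein that transcript counts do not show.

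Counted reads ranged from 7773117 to 22147398 per library, and the 9 genes took between 1.94% and 2.87% of them, so that counting error was small beside the spread between retinas. The 5 rod markers counted (Nrl, Nr2e3, Rp1, Pdc and Rom1) were all detected, and their summed level was 5830 to 7720 CPM (counts scaled to a common library total, median 6880) in control and 5170 to 7350 CPM (median 6470) in diabetic libraries. In bulk retina, fewer rods and less RNA per rod cannot be told apart. The summed markers of other cells had control and diabetic medians of 812 and 764 CPM for cones (5 of 5 markers detected), 1500 and 1400 for bipolar cells (5 of 5), 698 and 697 for amacrine cells (4 of 4), 457 and 485 for ganglion cells (4 of 4) and 2800 and 2760 for Müller glia (4 of 4). The part of cell composition in the results was not tested. The 6 markers of the retinal pigment epithelium were all detected, with a summed median of 140 CPM (27.8 to 282) in control and 97.8 CPM (23.7 to 286) in diabetic libraries. The 3 microglia markers had summed medians of 8.88 and 7.94 CPM. Of 5 lens markers 4 were detected, with Lim2 at a median of 0, and their sum reached 2120 CPM in 1 library, control ZT1 replicate 6, beside a control median of 1.04.

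Some libraries stood apart in their base composition. The GC slope of a library is the change in its log2 levels, relative to the mean library, with each 10 percentage points of transcript GC content. It was steep, over 2.5 robust standard deviations above the median, in 4 libraries: control ZT9 replicate 4, control ZT17 replicates 1 and 3, and diabetic ZT17 replicate 3. In these 4 libraries the GC-rich Pde6g (55.8% GC), Gnat1 (54.0%) and Cngb1 (53.9%) lay above the mean of the other libraries of their group in 4 of 4, by 0.22 to 0.50 on the log2 scale. Sag (52.6% GC) lay above it in 4 of 4 too, by 0.11 to 0.37, and so did Pde6a (49.3%), by 0.02 to 0.10. The AT-rich Cnga1 (42.6% GC) and Gngt1 (35.8%) lay below it in 4 of 4, by up to 0.72. Results were therefore computed with and without these 4 libraries. Over all libraries the median slope was −0.0666 in control (−0.2016 to 0.4477) and −0.0102 in diabetic retinas (−0.1527 to 0.3974). The slope was not tested between genotypes. One further library, diabetic ZT13 replicate 5, had 21.5% of its counts in its 10 most abundant rows, with 14.2% in the next highest library, and had the lowest Gnat1 (78240 normalized counts) and the highest Pde6g (20310) of the diabetic libraries. It was also the lowest of all libraries in the summed markers of rods (5170 CPM), cones (644) and amacrine cells (586) and the highest in those of the pigment epithelium (286).

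**Figure D1:**
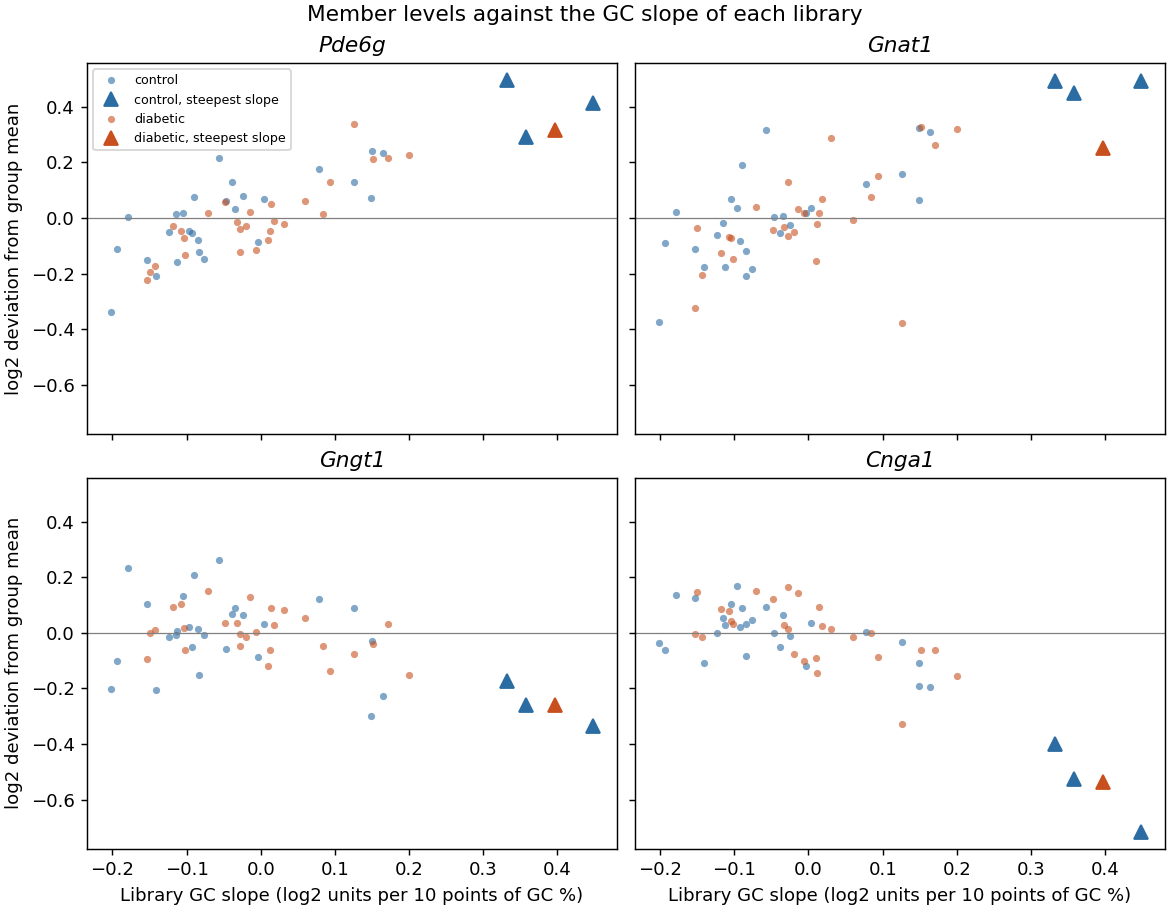
Each panel plots the log2 deviation of 1 gene from the mean of its genotype and time point (y axis, mean taken without the steepest libraries) against the GC slope of the library (x axis, log2 units per 10 percentage points of GC content), with 1 point for each of 58 libraries. Triangles mark the 4 libraries of steepest slope, where Pde6g and Gnat1 lie above 0 and Gngt1 and Cnga1 below it.

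Upstream sequences were read for the 6 genes with an entry in the RefSeq promoter set, Gnb1, Gngt1, Pde6b, Cnga1, Cngb1 and Sag. The 250 bases before the start given in that set (GRCm38.p6) were searched on both strands for the core of the CRX site (TAATCC), an NRL core (TGCTGA), an E-box (CACGTG), a ROR core (AGGTCA) and a D-box (TTATGTAA). Distances count from that start, which is not always the gene start of the positions given below. The Cnga1 window lies inside the gene, the Gngt1 window runs past the gene start and the Pde6b window ends shortly before it. CRX and NRL are transcription factors of rods, and the other elements are bound by factors of the circadian clock. Shown are 3 of them: Sag, the gene with the widest daily change, Gnb1, one of the genes lower in diabetic retinas, and Cngb1, whose course followed that of Gnat1. Capitals mark every match. The windows are chr1:87803430-87803679 on the plus strand for Sag, chr4:155491111-155491360 on the plus strand for Gnb1 and chr8:95306586-95306835 on the minus strand for Cngb1.
Sag: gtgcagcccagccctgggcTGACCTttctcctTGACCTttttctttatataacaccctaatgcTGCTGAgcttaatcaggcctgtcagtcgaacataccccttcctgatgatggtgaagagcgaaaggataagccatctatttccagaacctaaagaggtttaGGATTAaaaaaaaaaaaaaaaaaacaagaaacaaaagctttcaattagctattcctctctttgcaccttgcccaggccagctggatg
Gnb1: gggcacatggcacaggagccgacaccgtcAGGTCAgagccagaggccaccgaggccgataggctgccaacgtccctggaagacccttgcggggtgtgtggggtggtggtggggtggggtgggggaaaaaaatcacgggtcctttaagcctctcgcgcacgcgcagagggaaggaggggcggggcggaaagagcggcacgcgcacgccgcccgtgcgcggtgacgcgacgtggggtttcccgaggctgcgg
Cngb1: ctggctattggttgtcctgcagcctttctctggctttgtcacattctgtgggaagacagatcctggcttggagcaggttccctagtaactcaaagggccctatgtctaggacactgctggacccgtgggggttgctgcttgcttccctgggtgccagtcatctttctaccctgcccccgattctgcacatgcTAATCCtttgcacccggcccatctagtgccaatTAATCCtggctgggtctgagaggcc
Sag held 2 ROR cores, beginning 231 and 218 bases upstream, an NRL core at 187 and a CRX core at 87 bases. Cngb1 held 2 CRX cores, at 58 and 25 bases, and Gnb1 held a single ROR core at 221 bases. Of the other windows, Gngt1 held a CRX core at 44 bases, Cnga1 a CRX core at 228 and a ROR core at 38 bases, and Pde6b an NRL core at 8 bases. No E-box or D-box lay in these 6 windows. Among 32851 promoter windows of the same length, 6.25% held the CRX core, 16.1% the NRL core, 14% the ROR core, 6.02% the E-box and 0.819% the D-box. A match is a description of letters and not of a bound site.

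The first question was how strongly each subunit was expressed. Levels are compared between genes only per length, as counts per kilobase of length and scaled to library size (RPKM) over all annotated exons or, alternatively, over the longest coding transcript. Gnat1, the rod transducin alpha subunit (chr9:107674474-107679712), had the highest control median under both, 2780 RPKM over exons and 3610 over the transcript. Gnb1, a G protein beta subunit that many cell types also use (chr4:155491361-155559269), followed with 1450 and 1970. The ranges of these 2 genes over all libraries did not overlap on the exon scale (1630 to 3730 against 1190 to 1620) and overlapped slightly on the transcript scale (2120 to 4860 against 1620 to 2200).

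Below them the order depended on the length used. Over exons, Pde6a (catalytic alpha, chr18:61220315-61289924) had 579 RPKM, Pde6g (inhibitory gamma, chr11:120447605-120453500) 494, Pde6b (catalytic beta, chr5:108388391-108432397) 363 and Sag (chr1:87803680-87845158) 341. Over the coding transcript the control medians were 1770 RPKM for Sag, 1270 for Pde6g, 651 for Pde6b and 591 for Pde6a. Sag and Pde6a exchanged places between these scales. The coding transcript of Sag has 1719 bases, against 8904 exonic bases in all. Under both lengths Gngt1, the transducin gamma subunit (chr6:3993792-3997436), came next, with 171 and 509, followed by the channel subunits. Cnga1 (alpha, chr5:72603696-72644275) had 101 and 233 RPKM and Cngb1 (beta, chr8:95239045-95306585) 115 and 174, so that their order also changed with the length. No other annotated gene shared exonic bases with any of the 9.

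In each complex the subunits were not equally variable across retinas. Among controls Gnat1 varied most, with a coefficient of variation of 16.2%, and Pde6b least, with 5.42%. Among diabetic libraries Sag varied most, with 15.7%, followed by Gnat1 with 13.0%. Count ratios within a library, which do not depend on the scaling of libraries, gave 1.49 ± 0.124 (SD, n = 30) reads of Pde6a for each read of Pde6b in control and 1.43 ± 0.135 (n = 28) in diabetic retinas. The ratio of Gnat1 to Gnb1 was 1.40 ± 0.183 in control and 1.36 ± 0.149 in diabetic retinas. The ratio of Cngb1 to Cnga1 was 1.86 ± 0.481 and 1.83 ± 0.302, with a highest value of 3.57 in one of the libraries of steep GC slope. In the other 4 ratios within a complex the diabetic mean was the higher, with 14.8 ± 3.20 and 14.9 ± 2.39 for Gnat1 to Gngt1, 10.5 ± 1.07 and 10.9 ± 0.801 for Gnb1 to Gngt1, 2.33 ± 0.233 and 2.41 ± 0.240 for Pde6a to Pde6g and 1.57 ± 0.227 and 1.70 ± 0.191 for Pde6b to Pde6g. Of the 28 diabetic libraries 5 lay below the control median for Gnb1 to Gngt1 and 8 for Pde6b to Pde6g. The ratios were not tested between genotypes.

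The comparison of all diabetic with all control libraries asked whether the cascade differed irrespective of the time of day. All 9 transcripts had a lower fitted level in diabetic retinas, by between 1.92% and 10.5%, and 3 of the 9 passed the test, Gngt1, Gnb1 and Pde6a. Of all 18814 genes tested, 1.41% were called lower in diabetic retinas (adjusted p under 0.05, edgeR quasi-likelihood test with Benjamini-Hochberg adjustment). The median log2 fold change, diabetic minus control, was −0.10 over the 9 genes and 0.0023 over all genes, of which 48.7% had a value below 0. Among the 184 genes with a mean of at least 9 on the log2 CPM scale, among them all 9 cascade genes, the median was −0.029 and 76.6% were below 0. No alternative scaling, correction or left-out library turned any of the 9 directions over all time points.

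Gngt1, which tethers the transducin complex to the membrane through its lipid tail, fell by 10.5%. Normalized counts ranged from 7248 to 10566 in control libraries, with a median of 8689, and from 6620 to 8904 in diabetic libraries, with a median of 7701. The ranges overlapped, but 27 of 28 diabetic libraries lay below the control median. The log2 fold change was −0.16 (SE 0.0337), with an adjusted p of 0.00265, and the call was kept in each of the 58 fits that left out 1 library. It was lost when the levels were corrected for GC content and transcript length (log2 fold change −0.13, adjusted p = 0.19).

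Gnb1, the partner of both alpha and gamma subunits in transducin, fell by 6.62%. Its control libraries ranged from 74843 to 103300 normalized counts (median 90936) and its diabetic libraries from 73442 to 94296 (median 84285). Of the 28 diabetic libraries 24 lay below the control median. The log2 fold change was −0.10 (SE 0.0281, adjusted p = 0.0359), and 57 of 58 fits with 1 library left out kept the call, the exception being the fit without control ZT17 replicate 5 (adjusted p = 0.0502). It was also lost without a filter on low counts (adjusted p = 0.0538).

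Pde6a, one of the pair of catalytic subunits that hydrolyse cyclic GMP, fell by 6.25% and lay at the threshold. Control libraries ranged from 32673 to 45439 (median 39146) and diabetic libraries from 32709 to 41961 normalized counts (median 36259), with 24 of 28 diabetic libraries below the control median. The log2 fold change was −0.09 (SE 0.0281, adjusted p = 0.0499). Only 37 of the 58 fits with 1 library left out kept it. It was lost without control replicates 1, 4 or 6 at ZT1, 4 at ZT5, 4 at ZT9, 1, 2, 3 or 5 at ZT17 and 1 to 4 at ZT21, and without diabetic replicates 1 or 5 at ZT5, 1, 2, 4 or 5 at ZT9 and 3 or 4 at ZT13. It was also lost without a filter on low counts and with a term for the replicate number of the labels (adjusted p = 0.0598). The adjusted p was 0.00416 when time point entered the model as a factor.

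The remaining 6 transcripts did not pass the test in the main design. Pde6g, the inhibitory subunit, had a log2 fold change of −0.15 (SE 0.0473, adjusted p = 0.0586), with 23 of 28 diabetic libraries below the control median. It lay near the threshold and was called in 17 of 58 fits with 1 library left out (adjusted p 0.0197 to 0.0863). DESeq2 called it too (0.0387). It also passed with the members and the 10 most abundant rows left out of the scaling (0.0461) and with a term for the replicate number (0.0306). Those 17 fits left out control replicates 3 at ZT1, 1, 2 or 3 at ZT5, ZT9 or ZT13, and 1 at ZT21, or diabetic replicates 4 at ZT1, ZT5 or ZT9, 5 at ZT13, and 3 at ZT17 or ZT21. Gnat1 had −0.15 (SE 0.0548, adjusted p = 0.146), Sag −0.15 (SE 0.0509, adjusted p = 0.101), Cngb1 −0.05 (SE 0.0338, adjusted p = 0.479), Cnga1 −0.05 (SE 0.0436, adjusted p = 0.672) and Pde6b −0.03 (SE 0.0259, adjusted p = 0.688). The estimates of Gnat1, Pde6g and Sag were thus close to that of Gngt1, with wider errors. Sag is the member with the widest daily change, and with time point as a factor its SE narrowed to 0.0327 and it passed (adjusted p = 0.00274), as did Pde6g (adjusted p = 0.0496), so that 5 of 9 were called. In that fit 408 of all 18814 genes were called lower, against 265 in the main design. Leaving out the 4 libraries of steep GC slope gave log2 fold changes of −0.11 for Gnat1, −0.12 for Pde6g and −0.08 for Cnga1, with adjusted p of 0.214, 0.0924 and 0.0954, and only Gnb1 and Gngt1 were then called, beside 320 of 18997 genes called lower in all. With all libraries kept and the levels corrected for GC content and length, 4 genes were called, Gnat1 (−0.14, adjusted p = 0.0322), Gnb1 (−0.09, 0.0175), Pde6a (−0.10, 0.00923) and Pde6g (−0.13, 0.000591), but not Gngt1, and 460 of all 18814 genes were called lower.

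**Figure D2:**
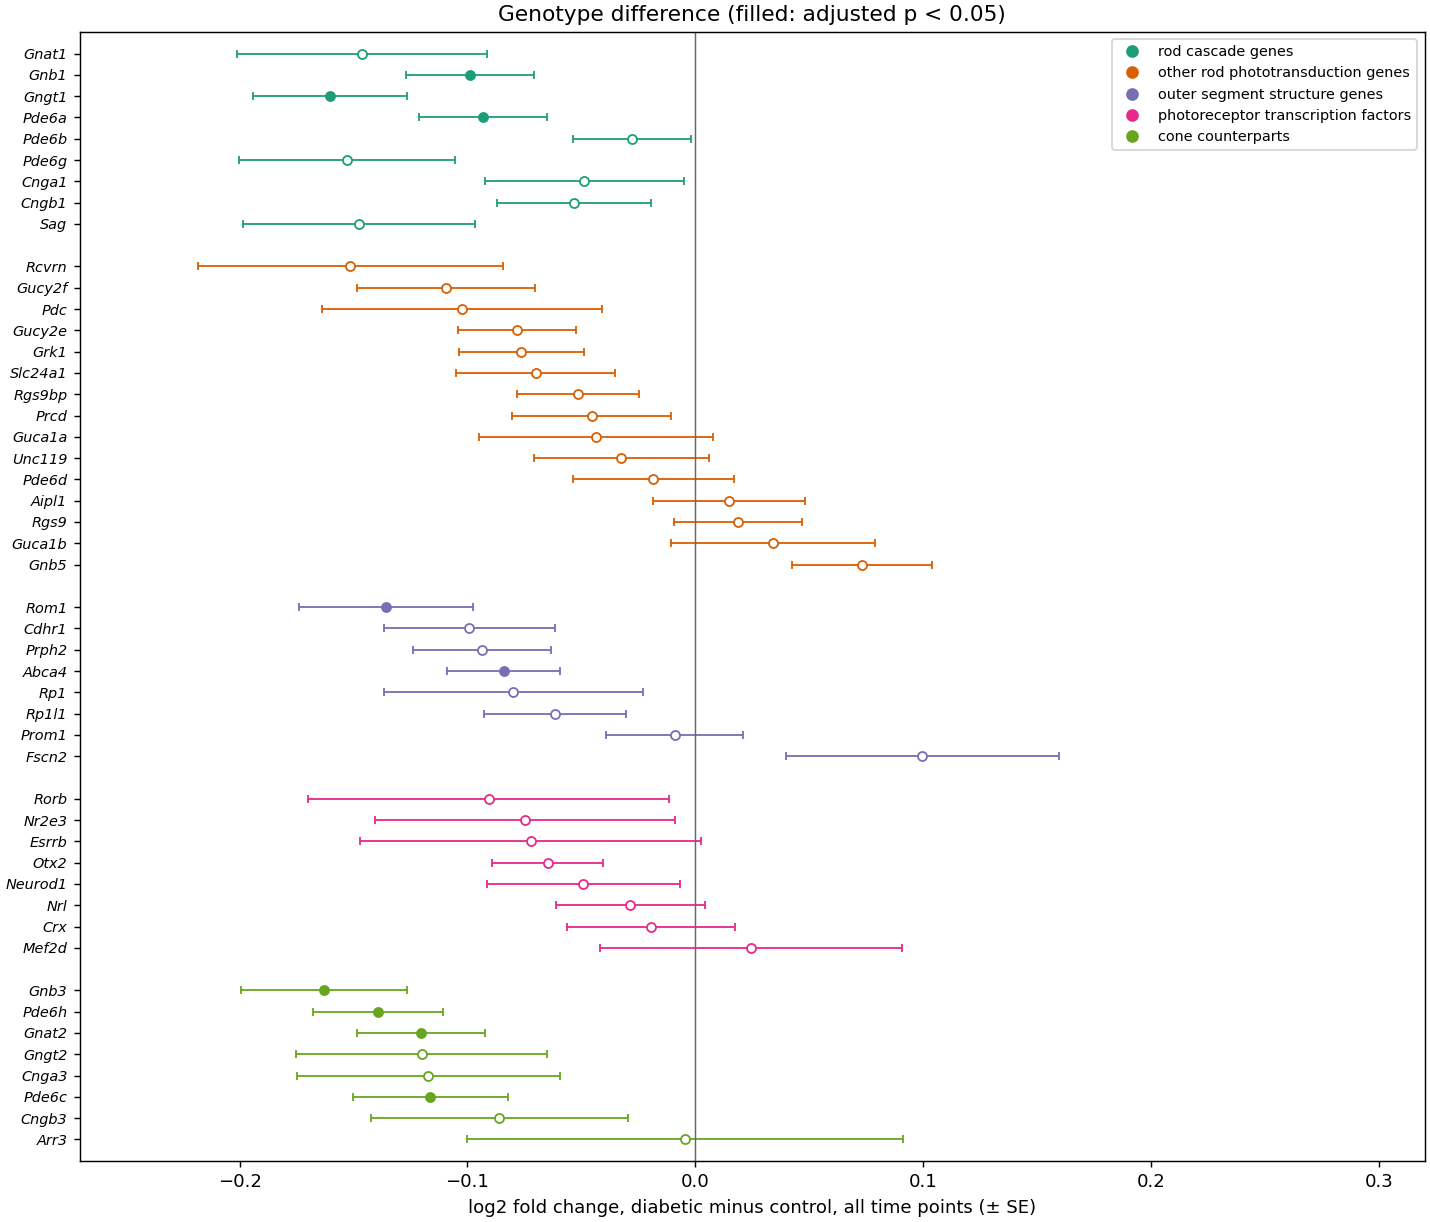
Points give the log2 fold change over all time points, diabetic minus control (x axis, bars ± SE, 30 control and 28 diabetic libraries), for each gene (y axis) of 5 lists, filled where the adjusted p is under 0.05. All 9 rod cascade genes and all 8 cone counterparts lie below 0 in this fit, with 3 and 4 of them filled.

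Other genes of the rod response were counted on lists of named genes. Of 15 further rod phototransduction genes, 0 were called by edgeR, with 6 at an unadjusted p under 0.05 (15.4% of all genes reached it), 1 (Gucy2e) called by DESeq2, and 11 below 0, around a median of −0.05. With correction for GC content and length 3 were called lower (Grk1, Gucy2e and Gucy2f), and with time point as a factor 3 lower (Grk1, Rcvrn and Gucy2f) and 1 higher (Gnb5). With both together 5 were called lower and 1 higher, while 1 (Gucy2f) was called lower without the libraries of steep GC slope. Grk1, a photoreceptor kinase that acts in the shutoff of the response, had a log2 fold change of −0.08 (SE 0.0274, adjusted p = 0.123), and Slc24a1, the sodium, calcium and potassium exchanger of rods, −0.07 (SE 0.0348, adjusted p = 0.318). Of 8 genes of outer segment structure 7 were below 0 and 2 fell, Rom1, a tetraspanin of disc rims (−0.14, SE 0.0382, adjusted p = 0.0332), and Abca4, a retinoid transporter of discs (−0.08, SE 0.0248, adjusted p = 0.0433). Without a filter, or without the 4 libraries of steep GC slope, only Rom1 was called. DESeq2 added Prph2, time point as a factor added Prph2 and Cdhr1, and with correction for GC content and length 5 were called, or 6 with that correction and time point as a factor. Prph2, the partner of Rom1 and the most abundant gene of that list, had −0.09 (SE 0.0302, adjusted p = 0.0728), and Rp1, an axonemal protein, −0.08 (SE 0.0569, adjusted p = 0.554). Of 8 photoreceptor transcription factors 0 were called by edgeR, with 1 at an unadjusted p under 0.05 and 0 called by DESeq2, and Rorb was called lower with correction for GC content and length and time point as a factor. Crx had −0.02 (SE 0.0367, adjusted p = 0.882) and Nrl −0.03 (SE 0.0326, adjusted p = 0.769).

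The cone versions of the same proteins were all below 0 (7 of 8 with time point as a factor or with correction for GC content), and 4 of 8 fell. They were Pde6h, the cone phosphodiesterase gamma subunit (−0.14, SE 0.0284, adjusted p = 0.00181), Gnb3, the cone transducin beta subunit (−0.16, SE 0.0364, adjusted p = 0.00472), Gnat2, its alpha subunit (−0.12, SE 0.0282, adjusted p = 0.00776), and Pde6c, the catalytic subunit (−0.12, SE 0.0339, adjusted p = 0.0405). The most abundant of the list after Gnb3, the cone arrestin Arr3, had −0.0044 (SE 0.0957, adjusted p = 0.994), beside −0.15 for the rod arrestin Sag. Whether rod and cone genes differed in the size of their change was not tested. The same 4 cone genes were called by DESeq2, after correction for GC content and length and without the 4 libraries of steep GC slope, and without a filter on low counts 3 of them were (Gnat2, Gnb3 and Pde6h).

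At single time points the genotypes were compared in 1 fit of 12 groups. None of the 54 pairs of gene and time point passed (edgeR, adjusted p), and 13 had an unadjusted p under 0.05. In that edgeR fit 4.36% to 8.85% of all genes did at the single time points. DESeq2 also called 0 of the 54, with 16 unadjusted, and its share of all genes is not given. The share of all genes called was 0.0106% at ZT1, 0.0213% at ZT5, 0.00532% for ZT9, 0.17% for ZT17 and 0% for both ZT13 and ZT21. At ZT13 and ZT21 an unadjusted p under 0.05 was reached by 4.41% and 4.58% of all genes, and DESeq2 called 1 and 8 genes. Of the 54 differences 50 lay below 0. The 4 exceptions were Pde6b (0.11) and Cnga1 (0.01) at ZT9, Pde6g at ZT13 (0.02) and Cnga1 at ZT17 (0.09). Without the 4 libraries of steep GC slope 48 of 54 lay below 0. Cnga1 then turned to −0.06 at ZT9 and −0.02 at ZT17, while Gnat1 (0.02), Pde6g (0.02), Cngb1 (0.07) and Sag (0.04) turned above 0 at ZT9. With correction for GC content and length 51 of 54 were below 0. Of the 54 differences 11 changed sign in at least 1 fit without a single library, and Pde6g at ZT13 was −0.10 without diabetic ZT13 replicate 5 and −0.05 without control ZT13 replicate 2.

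The median of the 9 log2 fold changes was −0.17 at ZT21, −0.15 at ZT17, −0.12 at ZT1 and −0.10 at ZT13, and was −0.05 at both ZT5 and ZT9. Without the 4 libraries of steep GC slope the ZT9 median was 0.02. The all-gene medians at the same time points lay between −0.0045 and 0.0092. Unadjusted p-values under 0.05 were found for 4 of the 9 genes at ZT17 and at ZT21, 3 at ZT1, 1 each at ZT5 and ZT13 and 0 at ZT9. Without the 4 libraries of steep GC slope the count at ZT17 was 2 (Gngt1 and Pde6g), with Pde6a at 0.0605 and Sag at 0.0608. It was then 4 at ZT21 and ZT1, 2 at ZT5 and ZT13 and 1 at ZT9. With correction for GC content and length the counts were instead 4 at ZT17 and 6 at ZT21. By adjusted p, that corrected fit called 159 of all genes at ZT17 and 5 at ZT21. The fit without the 4 libraries called 15 and 2, and the main fit 32 and 0. In the main fit the share of all genes with an unadjusted p under 0.05 was 8.85% at ZT17, 6.07% at ZT5, 5.47% at ZT1 and 4.36% at ZT9, beside the values for ZT13 and ZT21 above. This share is not given for the other fits. The change of the difference over the day was tested as a difference in rhythm.

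Pde6g at ZT17 had the largest single difference, −0.33 (SE 0.116, unadjusted p = 0.00681, adjusted p = 0.288). Control libraries 1 to 5 there had 21693, 17186, 23612, 16709 and 19405 normalized counts, and diabetic libraries 1, 3, 4 and 5 had 15426, 18434, 14328 and 14693. The highest values of each genotype, 23612 and 18434, came from libraries of steep GC slope, as did 21693. After correction for GC content and length the difference was −0.26 (SE 0.0562) and passed (adjusted p = 0.0114), in a fit that called 159 genes at ZT17. Without the 4 libraries of steep slope it was −0.27 (SE 0.120, adjusted p = 0.603).

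**Figure D3:**
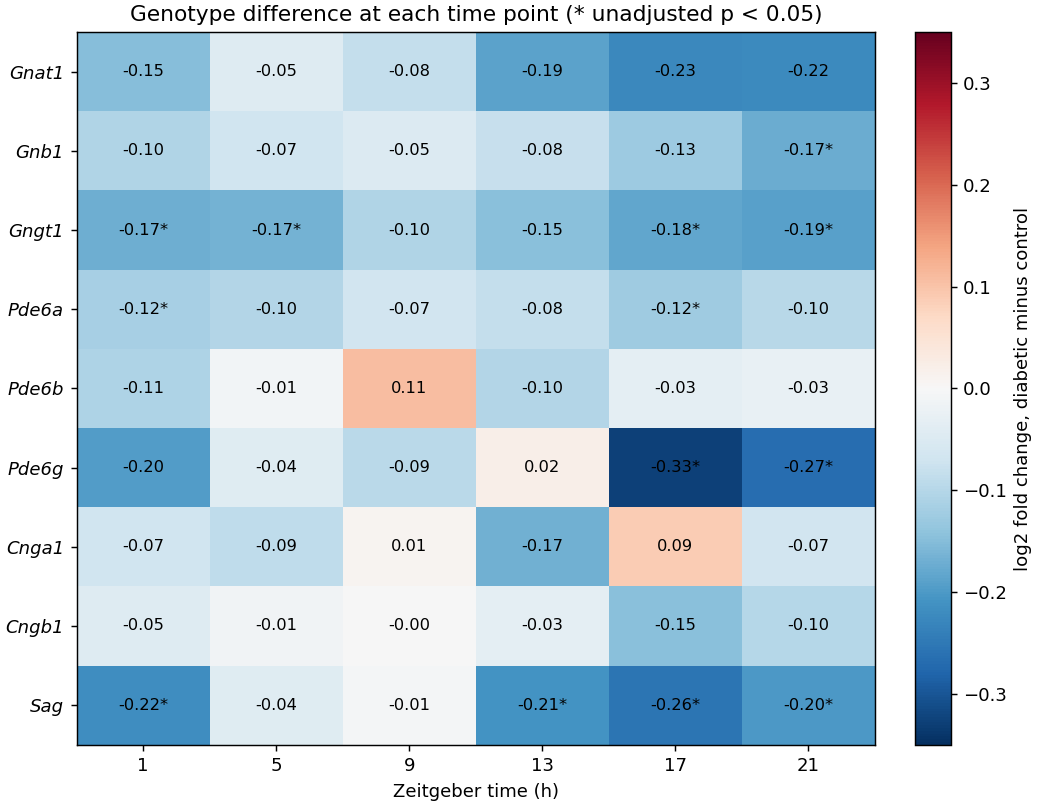
Each cell gives the log2 fold change, diabetic minus control, of 1 gene (rows) at 1 zeitgeber time (columns), with blue for lower and red for higher in diabetic retinas and an asterisk for an unadjusted p under 0.05. The values of Sag run from −0.0080 at ZT9 to −0.26 at ZT17 (0.04 and −0.17 without the 4 libraries of steep GC slope), and 50 of the 54 values are below 0 (48 without the 4 libraries of steep GC slope).

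The daily course of each gene was then examined within each genotype. Any difference among the 6 time points was found for 2 of 9 genes in control retinas, Sag (adjusted p = 0.00445) and Pde6a (adjusted p = 0.0451), and for Sag alone in diabetic retinas (adjusted p = 3.48e-07). The Pde6a call was lost without a filter on low counts (adjusted p = 0.151), without the 4 libraries of steep GC slope (0.0579) and in 12 of 58 fits with 1 library left out. By the same edgeR test 9.17% of all genes differed among time points in control and 10.1% in diabetic retinas. A 24 h cosine fitted in edgeR called Sag and Pde6a in both genotypes (diabetic Pde6a at adjusted p = 0.0364), beside 12.5% of all genes in control and 14.4% in diabetic retinas. The diabetic Pde6a call was lost without a filter on low counts (adjusted p = 0.0663) and without the 4 libraries of steep GC slope (0.0595). Diabetic Pde6b was called in DESeq2 (0.0494), beside 3054 of 18797 genes. Correction for GC content and length called diabetic Pde6b (0.039) and control Pde6g (0.0166), and its share of all genes is not given. With the empirical JTK_CYCLE test (unadjusted p under 0.05 and a highest library more than 25% above the lowest), Sag and Pde6a were rhythmic in control retinas and Sag, Pde6a and Pde6b in diabetic retinas, beside 21.8% of all expressed genes in the controls and 23.9% in the diabetic group. The shares of 2 and 3 of 9 are thus near those of all genes.

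Sag peaked in the second part of the day in both genotypes. In control retinas its group means started from 42286 ± 3450 (SD, n = 5) normalized counts at ZT1 and reached 44642 ± 3540 (n = 6) by ZT5 and 47656 ± 4630 (n = 5) by ZT9. They were still 46493 ± 3310 (n = 5) after the start of the dark phase, at ZT13, and then 38763 ± 5270 (n = 5) for ZT17 and 37809 ± 1750 (n = 4) for ZT21. In diabetic retinas the means in the same order were 36322 ± 3040 (n = 5), 43255 ± 1270 (n = 5), 47398 ± 4130 (n = 5), 40218 ± 1970 (n = 4), 32464 ± 2700 (n = 4) and 32921 ± 2150 (n = 5). The diabetic mean was below the control mean at each time point, by least at ZT9, and no single time point passed the test. The ratio of the highest to the lowest mean was 1.26 in control and 1.46 in diabetic retinas.

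Values of single libraries are given for ZT9 and ZT21. At ZT9 the control libraries 1 to 5 had 41780, 47823, 45329, 54254 and 49096 normalized counts of Sag and the diabetic libraries 41972, 44087, 49201, 50385 and 51343, which overlapped almost fully. At ZT21 the control libraries 1 to 4 had 39493, 38715, 35468 and 37559 and the diabetic libraries 1 to 5 had 34590, 35083, 33645, 30454 and 30833, with every diabetic library below the lowest control (log2 fold change −0.20, SE 0.0803, unadjusted p = 0.0158, adjusted p = 0.921). At ZT13 likewise the highest diabetic library (42421) lay below the lowest control library (42579), while at ZT1 and ZT17 the genotypes overlapped.

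The fitted cosine of Sag had its acrophase, the time of the fitted peak, at ZT8.68 in control and ZT8.03 in diabetic retinas. Its relative amplitude, the amplitude as a share of the fitted mean, was 11.5% for the controls and 19.3% for the diabetic group, at the percentiles 72.5 and 89.7 of expressed genes. The rhythm p was 0.000537 in control and 1e-06 in diabetic retinas, the smallest value the 1000000 shuffled series can give. After adjustment over all expressed genes both remained below 0.05 (0.0132 and 0.000387), and no left-out library or time point ended either call. Among fits that left out 1 library, the relative amplitude was 10.4% to 12.5% in control and 18.4% to 20.1% in diabetic retinas.

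Pde6a peaked late in the night. Its control means were lowest around the change from light to dark, with 37045 ± 2740 (SD, n = 5) normalized counts at ZT9 and 37038 ± 2650 (n = 5) at ZT13. They were highest in the dark, with 41191 ± 2210 (n = 5) at ZT17 and 42426 ± 2090 (n = 4) at ZT21, and between these in the early light, with 39788 ± 1440 (n = 5) for ZT1 and 38522 ± 1650 (n = 6) for ZT5. The diabetic means followed the same order of time points at a lower level, from 34932 ± 787 (n = 4) at ZT13 to 39666 ± 2980 (n = 5) at ZT21. The acrophase was ZT21.1 in control and ZT20.7 in diabetic retinas and the relative amplitude 6.74% and 5.50%. The permutation p of its rhythm was 0.00191 for controls and 0.00939 for the diabetic group, or 0.0292 and 0.0721 with adjustment over all expressed genes. The diabetic call was also lost without ZT21 (permutation p = 0.0839) and with correction for GC content and length, where the p was 0.00521 but the fold criterion was not met.

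Pde6b, the partner of Pde6a in the catalytic dimer, was not called in control retinas (permutation p = 0.432, relative amplitude 1.33%, or 0.844% to 1.79% with 1 library left out) and was called in diabetic retinas (permutation p = 0.0346, 4.93%, acrophase ZT9.53). The diabetic libraries 1 to 5 at ZT9 had 27330, 26247, 28248, 27204 and 31428 normalized counts, and the diabetic mean there, 28091 ± 2000, was the highest of the 12 groups. Replicate 5 at ZT9 was the highest of all 58 libraries. The call did not hold after adjustment (adjusted p = 0.165), without ZT9 (permutation p = 0.583) or without ZT21 (permutation p = 0.0545). Of 28 fits with 1 library left out 21 kept it, and it was lost without diabetic replicates 4 or 5 at ZT1, 1, 3, 4 or 5 at ZT9, or 2 at ZT21. The lowest and highest time point means of the count ratio of Pde6a to Pde6b were 1.26 ± 0.0931 (n = 5) at ZT9 and 1.59 ± 0.0697 (n = 5) at ZT21 in diabetic retinas, and 1.36 ± 0.0951 (n = 5) at ZT13 and 1.67 ± 0.131 (n = 4) at ZT21 in control retinas. These time points were picked by their means, and the ratio was not tested over time.

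The other 6 genes were not called in either genotype. Pde6g and Gnat1 had relative amplitudes of 9.57% and 9.73% in control retinas, with acrophases at ZT19.0 and ZT20.0, and of 3.60% and 4.35% in diabetic retinas. With 1 library left out the diabetic amplitudes ranged from 1.13% to 4.65% for Pde6g and from 2.82% to 6.28% for Gnat1. Their control p-values were 0.0724 and 0.103. Both were high in the control libraries of steep GC slope at ZT17, and without the libraries of steep slope the control p-values were 0.0837 and 0.0537, while correction for GC content and length brought Pde6g to 0.0188 with an amplitude of 5.59%. Pde6g was also called without ZT13 (permutation p = 0.0384). Without control ZT9 replicate 4, another library of steep slope, Gnat1 (permutation p = 0.0279), Pde6g (0.0151) and Cngb1 (0.0389) were all called, which made 5 of 9 genes, beside 26.6% of all expressed genes in that fit. Gnb1 had control and diabetic amplitudes of 3.56% and 1.01%, Gngt1 2.15% and 3.27%, Cnga1 4.93% and 2.64%, and Cngb1 5.37% and 2.26%. These small amplitudes moved with single libraries, for Cnga1 from 2.56% to 6.31% in control and 1.21% to 3.85% in diabetic retinas, for Gnb1 from 0.437% to 1.71% and for Cngb1 from 1.40% to 3.09% in diabetic retinas, and for Gngt1 from 1.30% to 3.34% in control retinas. With correction for GC content and length those of Cnga1 were 2.10% and 0.911%, and those of Cngb1 3.20% in control and 3.83% in diabetic retinas, which reversed their order. The corrected diabetic course of Cngb1 had a permutation p of 0.0187 but did not meet the fold criterion. The control means of Gngt1 lay between 8480 and 9002 normalized counts, and its control amplitude was 6.69% after correction for GC content and length (permutation p = 0.309).

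**Figure D4:**
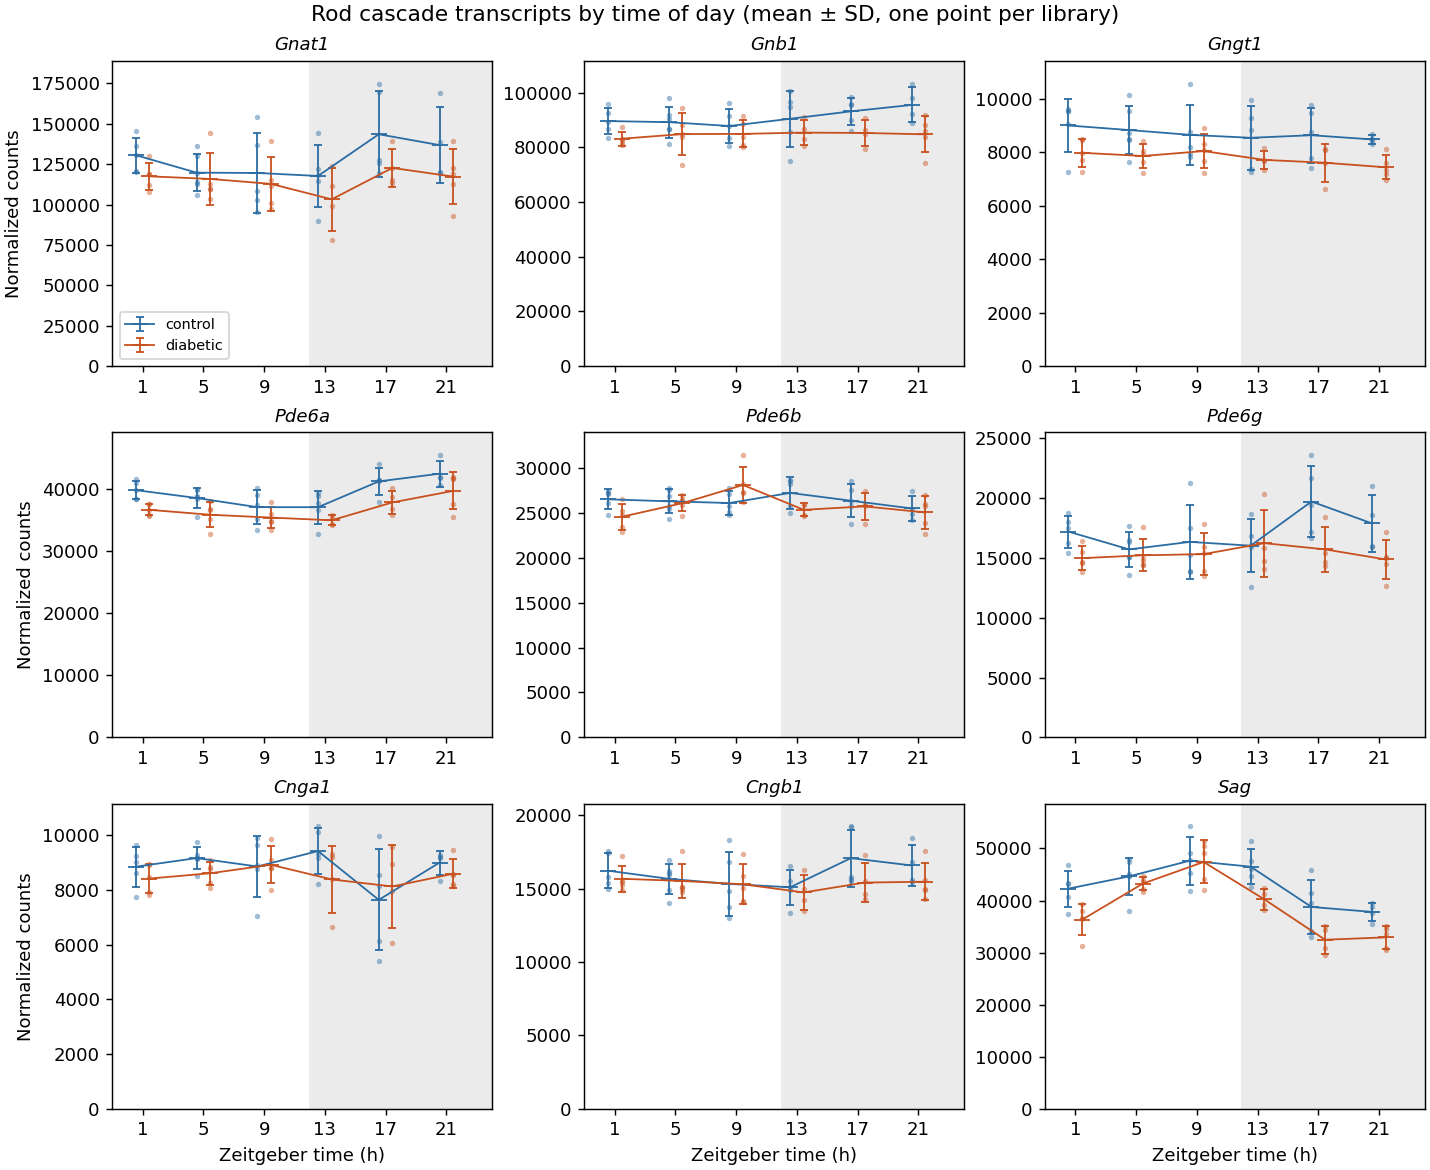
Normalized counts (y axis, from 0) of the 9 genes at 6 zeitgeber times (x axis, h, grey for the dark phase), with a point for each library and the mean ± SD of each group of 4 to 6 libraries in control (blue) and diabetic (orange) retinas. Sag rises to ZT9 in both genotypes, to means of 47656 and 47398, and Pde6a is highest at ZT21.

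A difference in rhythm between genotypes was tested with a genotype term on a 24 h cosine and sine over all 58 libraries. Of all 18814 genes 0% were called by edgeR, 3.39% had an unadjusted p under 0.05 and DESeq2 called 0. Sag alone of the 9 had an unadjusted p under 0.05 (0.0374, adjusted p = 0.9999), with Pde6g at 0.0775 and the other 7 between 0.277 and 0.858. With correction for GC content and length the unadjusted p was 0.0858 for Sag and 0.00283 for Pde6g (adjusted p = 0.669), and without the libraries of steep slope 0.0415 for Sag and 0.0128 for Pde6g (adjusted p = 0.972). The wider amplitude of Sag in diabetic retinas and the call of Pde6b in only 1 genotype were therefore not shown to be differences between the genotypes. Differences in fitted acrophase, diabetic minus control, were −0.65 h for Sag and −0.34 h for Pde6a, the 2 genes called in both.

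**Figure D5:**
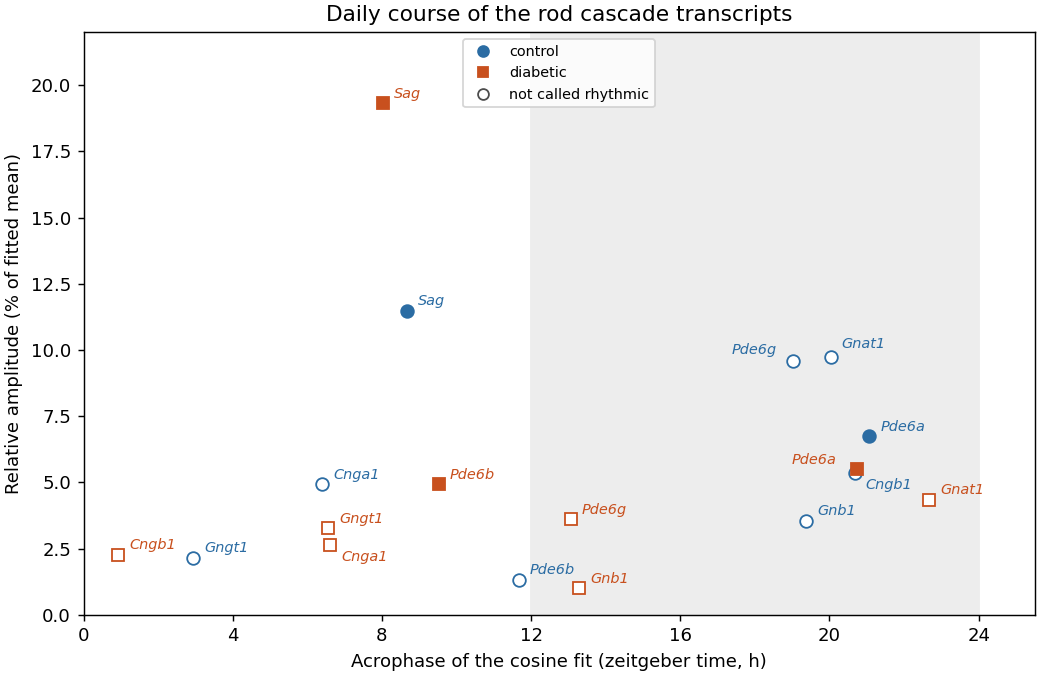
Relative amplitude (y axis, percent of the fitted mean) against acrophase (x axis, zeitgeber time, h, grey for the dark phase) of the 24 h cosine for the 9 genes in control (circles, n = 30 libraries) and diabetic (squares, n = 28) retinas, filled where rhythmic. Sag stands highest, at 11.5% and 19.3%, and Pde6a lies near ZT21 in both genotypes.

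Likeness of courses was described by Pearson's r over the 12 group means of log2 normalized counts, which share libraries and their GC slopes. Gnat1 and Cngb1 were the most alike (r = 0.942), and both are GC-rich. The gene most like Gnb1 was Pde6g (0.846) and the reverse also held, while Pde6a was most like Gnat1 (0.884) and Gngt1 most like Gnb1 (0.712). Sag was most like Pde6b (0.722) and Cnga1 most like Sag (0.557). Subunits of 1 complex were not always alike, with 0.747 between Gnat1 and Gnb1, −0.182 between Pde6a and Pde6b and −0.355 between Cnga1 and Cngb1. Outside the cascade, the 3 genes closest to the mean course of the 9 were Prph2 (0.947), which shapes disc rims, Rnf123 (0.931), a ubiquitin ligase subunit, and Tmub2 (0.917), a transmembrane protein with a ubiquitin-like domain.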

How the data were processed

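The authors sequenced rRNA-depleted total RNA of single mouse retinas (KAPA RNA HyperPrep with RiboErase) as paired-end reads, aligned them to GRCm38.p5 with Gencode M15 by STAR 2.7.4a and deposited raw counts per gene from HTSeq 0.11.1, 1 column for each of 58 libraries. The strand setting is not given in the sources used here. Depletion of rRNA keeps unspliced RNA, which the counts include only where it falls in exons. Counts ranged from 7773117 to 22147398 per library.

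Libraries were grouped by genotype and time point from their labels. The members and all lists were chosen with earlier results of these data known. All 9 members were named in every comparison, with the 2 most abundant and the called genes (at most 5) of each other list, the 3 outside genes of most similar course and, for each member, the member most like it. A gene of the rod lists is not reported here, and list counts and sums leave it out.

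Differential expression used edgeR 4.0.16 (quasi-likelihood test, TMM factors, filterByExpr, 18814 genes, Benjamini-Hochberg adjustment, threshold 0.05) in R 4.3.3: all libraries with 1 group per genotype, 12 groups in 1 fit, and a 24 h cosine. SEs follow from the F statistic. Rhythm used an empirical JTK_CYCLE re-implemented in Python 3.11.15 with numpy 2.4.6 on counts divided by DESeq2 1.42.0 size factors, for genes with a median above 4 normalized counts, calling those whose highest library lay more than 25% above the lowest, with 6 phases, 5 widths and 1000000 shuffled series (200000 for alternatives). The difference in rhythm was fitted in edgeR because the package of the study was not at hand. Scripts were tested on simulated data.

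Alternatives were DESeq2 size factors and tests, no filter, time point as a factor, members left out of the scaling, a replicate block, and each library or time point left out. A correction for GC content and transcript length, and leaving out 4 libraries, were chosen after seeing the data. The correction was a smooth trend of each library on transcript GC content and length, fitted over 10658 genes and entered as offsets. Gene positions and lengths came from Gencode M21 on GRCm38 and upstream sequences from RefSeq.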

Additional observations from a re-analysis of the deposited data

Results flagged for a closer look

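In 8 of the 108 groups of 4 to 6 libraries examined, the highest or lowest library lay far from the others by Dixon's test at the 95% level, which chance gives in about 1 group in 20. Diabetic ZT5 replicate 4 was high for the GC-rich genes Gnat1 (144318 normalized counts, the others 103377 to 112436), Pde6g (17580, the others 14384 to 15021) and Cngb1 (17582, the others 14772 to 15137), and its GC slope was 0.151 beside a diabetic median of −0.0102. Diabetic ZT1 replicate 4 was also high for Cngb1 (17193, the others 14932 to 15520). Control ZT5 replicate 1 was low for Pde6a (35405, the others 38400 to 40012) and for Sag (37984, the others 44758 to 47968). Control ZT1 replicate 4 was low for Gngt1 (7277, the others 9047 to 9621), and control ZT21 replicate 4 for Cnga1 (8352, the others 9167 to 9284).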

How the results depend on the processing

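The 9 fold changes over all time points kept their direction in all 9 alternatives and all 58 fits with 1 library left out. The number of genes called lower, 3, was 1 with no filter on low counts, 5 with time point as a factor and 6 with correction for GC content and length and time point as a factor. It ranged from 1 to 4 with 1 library left out, with 1 (Gngt1) without control ZT17 replicate 5. At single time points the count of 0 became 1 (Pde6g at ZT17) with correction for GC content and length, and was 0 to 0 without single libraries. For differences among time points, the control count of 2 was 1 with no filter and 1 without the 4 libraries of steepest GC slope, losing Pde6a both times, and 1 to 3 with 1 library left out. Pde6a was lost there without control ZT9 replicates 1, 2 or 3, ZT13 replicates 2 or 5, ZT17 replicates 1, 2, 3 or 5, or ZT21 replicates 1, 3 or 4. The diabetic count of 1 was 2, with Pde6a, in DESeq2 and without diabetic ZT21 replicate 2, and ranged from 1 to 2. The rhythmic count in control retinas, 2, ranged from 2 to 5, with 5 without control ZT9 replicate 4 and 4 without control ZT13 replicate 4 or ZT9 replicate 5. The diabetic count of 3 was 1 (Sag) after adjustment over all expressed genes, 1 (Sag) without ZT21 and 2 to 3 without single libraries. The difference in rhythm stayed at 0 in every alternative, and 0 to 0 without single libraries. The cause of these changes was not tested. Replicate numbers of the labels gave correlations of −0.568 to 0.854 over 26 same-numbered pairs (median 0.309, and −0.102 for other numbers), and 26 of 52 libraries correlated best with their own number. Of the 26 pairs 22 exceeded 0.1, so libraries of the same number tended to deviate together. The main fits did not take the numbers as pairs, and a replicate block was run as an alternative. With the replicate block 3 genes were called over all time points (Gnb1, Gngt1 and Pde6g at adjusted p = 0.0306, with Pde6a lost at 0.0598), beside 493 of all genes in either direction, and 1 of 8 genes of outer segment structure (Rom1). At ZT17 the block brought 7 of 9 to an unadjusted p under 0.05 in place of 4 (adjusted, 0 were called, beside 51 of all genes, against 32 in the main fit). It called 3 among control time points (Pde6g was added), beside 2430 of all genes, and in the cosine test 3 in control and 2 in diabetic retinas, beside 3061 and 3020. Over all genes, 572 differed between genotypes, 364 with no filter, 886 with time point as a factor, 959 with the GC and length correction and 1546 with both. Counting error was small for these abundant genes.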
